A study of Arabidopsis thaliana with 44 samples.

Results

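Cauline leaves, the small leaves carried on the flowering stem, were compared directly with rosette leaves, the leaves at the base of the plant. The comparison used 8 of the 44 libraries of the series, chosen by tissue in the sample titles, and 2 replicates per leaf, which the methods call biological. All plants were of the Col-0 accession of Arabidopsis thaliana and were grown in days of 16 h of light, at 22 °C. Rosette leaves were taken after 30 days in soil and cauline leaves after flowering, with no day given. The hour of harvest and the number of plants per sample were not stated in the labels or methods, so the kind of leaf, the age of the plant and the hour of harvest cannot be told apart. Each replicate gave a library treated with the methyltransferase MjDim1, which labels N6-methyladenosine (m6A) so that it is read as a mutation, and an untreated input library. Gene expression was taken from the 4 input libraries. The deposited m6A fraction of a site, the calibrated share of transcripts methylated there, is a single value per leaf in which the replicates are pooled.

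A leaf begins as a sink that grows by cell division and expansion, becomes a source that fixes CO2 through the Calvin cycle, and ends in senescence, when chlorophyll and proteins are taken apart and their nitrogen is exported to growing organs and seeds. Jasmonate and salicylic acid, hormones of defence, are also known to be active in ageing leaves. In plants m6A is placed on mRNA mainly by a writer complex with MTA and MTB, lies mostly in the 3′ UTR, and is bound by the ECT proteins.

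The input libraries held 6903234 and 3355823 counts on genes for cauline leaf and 4887345 and 3946081 for rosette leaf, and the treated libraries between 12006931 and 14030912. A chi-square of the counts between replicates, which is near 1 per degree of freedom when 2 libraries differ by sampling alone, was 1.44 for the cauline and 1.64 for the rosette input pair. It was 1.3 for the treated cauline pair and 5.76 for the treated rosette pair, the highest of the 18 pairs in the tissue series. Levels are given as CPM, the share of a library's counts with the library total scaled by TMM, in the order replicate 1 and replicate 2. As a check of the labels, with CPM on library totals, the summed level of 12 leaf cell markers ranged from 18800 to 19700 CPM in cauline leaf and from 71200 to 74100 CPM in rosette leaf. Seed and root reached at most 33.5 and 321 CPM, and the other tissues ran from 16900 CPM in shoot to 42100 CPM in seedling. These markers thus set cauline leaf apart from seed and root alone. The 15 seed markers summed to 6.37 to 8.94 CPM in cauline and 0.409 to 1.01 CPM in rosette leaf, against at least 131000 CPM in seed. The 13 matched flower markers summed to 15.5 to 23.3 CPM in cauline and 0.614 to 1.27 CPM in rosette leaf, against at least 887 CPM in flower. Of these, SEP1 and SEP3, floral organ identity genes, made up most of the cauline signal, and 7 of the 13 were at 0 in both cauline libraries. Root and xylem markers stayed below 80 CPM in both leaves. In bulk leaves, fewer cells of a type and less RNA per cell cannot be told apart.

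Of the 32833 genes in the table, 15791 had enough counts to be tested. In edgeR's quasi-likelihood test at an adjusted p below 0.05, 5818 genes (36.8% of those tested) were higher in cauline leaf and 5686 (36.0%) were lower, so a call alone says little about a gene here. The cauline libraries were both above both rosette libraries in 6858 tested genes and both below them in 6577. A lack of overlap between the leaves thus says little about a gene as well. A difference of at least 2-fold was called for 3391 genes (21.5%) upward and 3552 (22.5%) downward, and of at least 8-fold for 819 and 637 genes. The median log2 fold change over all tested genes was 0.04, with an SD of 1.86. Without TMM, on library totals alone, the median was 0.43 and the split was 7955 genes higher against 4169 lower.

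The largest rises named by the rule were in genes with few or no reads in rosette leaf. STR15, better known as SEN1, a gene induced in the dark and in senescence, stood at 1736 and 1746 CPM in cauline leaf and 3.33 and 3.44 CPM in rosette leaf. Both cauline libraries lay above both rosette libraries, as the rule requires. The log2 fold change was 9.0 ± 0.14 (SE), with adjusted p = 2.98e-92 in edgeR's test. DRMH1, a dormancy-associated gene, was at 1919 and 1936 CPM in cauline leaf and 5.7 and 3.44 CPM in rosette leaf, a log2 fold change of 8.68 ± 0.14 (SE). For 10 further genes no read was counted in either rosette library, so that only a lower bound of the fold, set against 3 counts over the rosette libraries, can be given. DJC76, a chloroplast DnaJ protein, stood at 209 and 199.6 CPM in cauline leaf, at least 529-fold higher. BCAT2, which starts the breakdown of branched-chain amino acids, stood at 128 and 132 CPM, at least 332-fold higher. AT2G38240, deposited as ANS but not the anthocyanidin synthase, was at 91.7 and 88.8 CPM, at least 233-fold higher; its product is a jasmonate oxidase. NAC055, a transcription factor of jasmonate and stress responses, rose at least 65.1-fold, and GPT2, which imports glucose phosphate into plastids, at least 61.6-fold. The clock genes PRR5, deposited as APRR5, and FKF1, deposited as ADO3, also belonged here, as did CHAT, which makes a green leaf volatile ester, CSLG2 and CCOAMT, with lower bounds between 67.9 and 82.8 for these 3.

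The largest falls were led by genes of flavonoid synthesis, wall loosening and the morning clock. CHS, chalcone synthase and the first enzyme of the flavonoid pathway, was at 2.25 and 2.13 CPM in cauline leaf and 409 and 382 CPM in rosette leaf. Both cauline libraries were near the floor, and the log2 fold change was -7.46 ± 0.14 (SE), with adjusted p = 6.37e-85. COL2, a CONSTANS relative, was at 2.25 and 2.13 CPM in cauline leaf and 401 and 366 CPM in rosette leaf, a log2 fold change of -7.42. LHY, a morning transcription factor of the clock, was at 4.01 and 4.52 CPM in cauline leaf and 491 and 445 CPM in rosette leaf, a log2 fold change of -6.80 ± 0.13 (SE). XTH31, which remodels wall xyloglucan, stood at 0.251 and 0.532 CPM in cauline leaf and 63.7 and 71.1 CPM in rosette leaf, and the ratio of AtGH9B8, an endoglucanase, was 169 (95% counting interval 46.1 to 1400) in favour of rosette leaf. EXPB1 and EXPB3, expansins that loosen walls, had log2 fold changes of -6.96 and -6.25. SCPL10, PLAT2 and MIP1A followed at -6.81, -6.59 and -6.32, and for XTH8 the ratio was 82.4 (95% counting interval 27.7 to 404) in favour of rosette leaf. CHI3 had no read in either cauline library and 19 and 21.5 CPM in rosette leaf, at least 78.8-fold lower. All 24 genes named by this rule kept their direction and their call under each of the 12 other settings tried. They were chosen as the largest called changes, and the settings reuse these libraries or treated ones of the same replicates. Their agreement is thus no separate support.

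**Figure D1:**
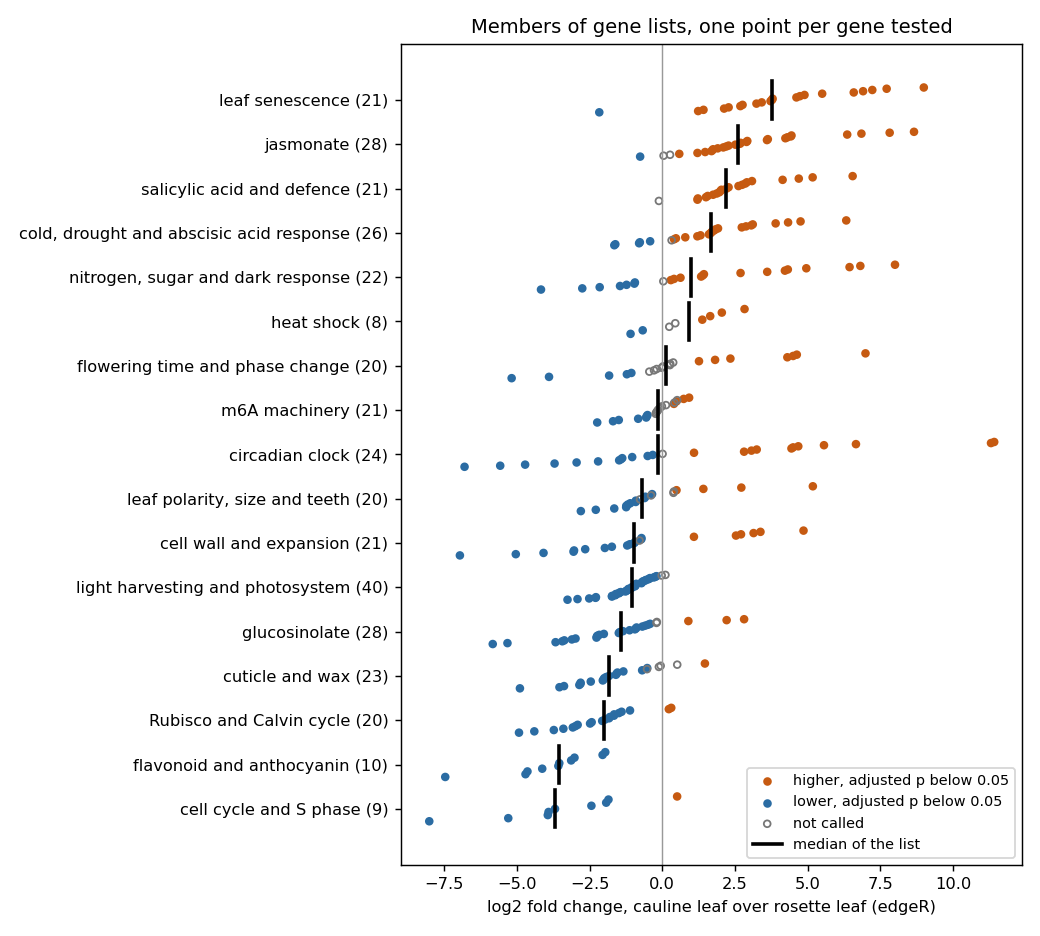
Log2 fold change of cauline over rosette leaf for each tested member of 17 gene lists, with 1 point per gene, filled where the edgeR call was made, and the number tested in brackets. The black line is the list's median, which runs from 3.78 for leaf senescence to -3.69 for cell cycle; fitted values of genes at 0 in a leaf depend on a prior count.

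Genes of the light reactions were lower in cauline leaf. Of 40 light harvesting and photosystem genes tested, 38 were lower and 0 higher, with a median log2 fold change of -1.04 against 0.04 over all genes. On library totals 32 were lower and 4 higher, with a median of -0.65. LHCB1.2, a chlorophyll-binding protein of the photosystem II antenna, stood at 973 and 1092 CPM in cauline leaf and 10060 and 9681 CPM in rosette leaf, a log2 fold change of -3.26 ± 0.09 (SE). Every rosette value was above every cauline value, but the LHCB1 copies are nearly identical and their shares of the reads are uncertain. ATPD, a subunit of the chloroplast ATP synthase, was at 168 and 146 CPM in cauline leaf and 1206 and 1187 CPM in rosette leaf, a log2 fold change of -2.92 ± 0.08 (SE). PSBS, which switches on heat dissipation in the antenna, was at 417 and 439 CPM in cauline leaf and 2471 and 2406 CPM in rosette leaf, a log2 fold change of -2.51. In the antenna of photosystem I, LHCA3 and LHCA2 were nearer to equal at -0.20 and -0.29, which turn to 0.19 and 0.09 on library totals. LHCA1 and LHCA4 of the same antenna had log2 fold changes of -0.90 and -0.92. PSBR and PSBQ2, small subunits at the oxygen-evolving side of photosystem II, did not pass the test, with log2 fold changes of 0.11 and -0.02.

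Calvin cycle genes were lower too, 18 of 20 of them, with 2 higher and a median log2 fold change of -2.02. RBCS1B, a small subunit of Rubisco, was at 113 and 122 CPM in cauline leaf and 3626 and 3472 CPM in rosette leaf, and RBCS1A, another copy, at 4459 and 4924 CPM in cauline leaf and 27330 and 25100 CPM in rosette leaf. Both small subunits were lower in each cauline library, with log2 fold changes of -4.93 ± 0.09 (SE) and -2.48 ± 0.10 (SE), again with the caution that the copies share sequence. RCA, the Rubisco activase, was at 4501 and 4736 CPM in cauline leaf and 25670 and 24020 CPM in rosette leaf, a log2 fold change of -2.43 ± 0.10 (SE) with adjusted p = 3.84e-48. FBA1, a plastid aldolase, was at 226 and 271 CPM in cauline leaf and 5330 and 5065 CPM in rosette leaf, a log2 fold change of -4.40 ± 0.09 (SE). GAPA2, a subunit of the NADPH-using dehydrogenase, fell by 3.73 on the log2 scale. The only rises were in CP12-1 and CP12-2, which bind and hold back GAPDH and PRK, at 0.23 and 0.31.

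**Figure D2:**
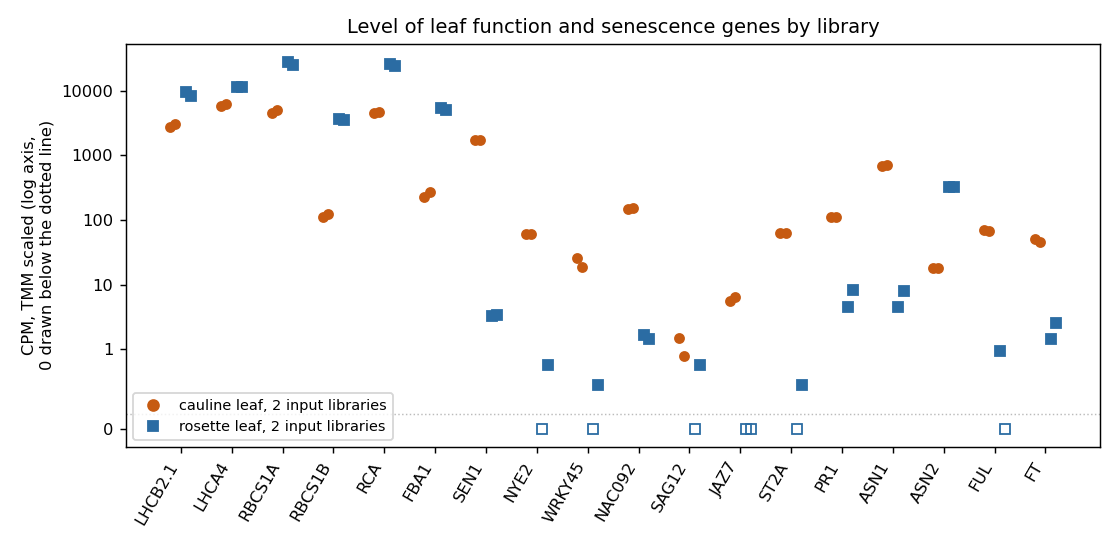
Level of 18 genes of leaf function, senescence, defence, nitrogen and flowering in each input library (TMM-scaled CPM, log axis, 0 drawn as open symbols under the dotted line), with circles for cauline and squares for rosette leaf. RCA lies at 25670 and 24020 CPM in rosette leaf against 4501 and 4736 CPM in cauline leaf, and SEN1 near 1740 CPM in cauline leaf against about 3.4 CPM in rosette leaf.

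Senescence genes were almost all higher in cauline leaf. Of 24 listed genes 21 could be tested, 20 were higher and 1 lower, and the median log2 fold change was 3.78. NAC092, also called ORE1, a transcription factor that drives leaf senescence, was at 150.4 and 155 CPM in cauline leaf and 1.66 and 1.43 CPM in rosette leaf, a log2 fold change of 6.59 ± 0.18 (SE) with adjusted p = 1.66e-65. NYE2, a STAY-GREEN protein of chlorophyll breakdown, was at 60.3 and 60.1 CPM in cauline leaf and 0 and 0.573 CPM in rosette leaf, a ratio of 232 (95% counting interval 63.9 to 1920). Reads of WRKY45, another senescence regulator, gave 25.6 and 19.1 CPM in cauline leaf and 0 and 0.287 CPM in rosette leaf, a ratio of 181 (95% counting interval 32.2 to 7170). No rosette library reached 1 CPM for either gene. The enzymes that then degrade chlorophyll rose together, with log2 fold changes of 3.80 for NYC1, 3.78 for PPH and 2.69 for PAO. PSK3, a precursor of the growth peptide phytosulfokine, was the exception at -2.17. SAG12, a cysteine protease that marks late senescence, was too low for the test at 1.5 and 0.797 CPM in cauline leaf and 0 and 0.573 CPM in rosette leaf, and the cauline libraries were barely above the rosette ones.

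The same leaves carried more mRNA of the jasmonate and salicylic acid pathways. In the jasmonate list 25 of 28 tested genes were higher and 1 lower, with a median log2 fold change of 2.60. ST2A, a sulfotransferase of 12-hydroxyjasmonate, was at 63.6 and 61.9 CPM in cauline leaf and 0 and 0.287 CPM in rosette leaf, a ratio of 486 (95% counting interval 86.9 to 19200). JAZ7, a repressor of the pathway that jasmonate induces, was at 5.51 and 6.38 CPM in cauline leaf and 0 in both rosette libraries, at least 14.9-fold higher. Ratios of CYP94B3, which inactivates the hormone, and of the defensin PDF1.2 were 138 (95% counting interval 24.5 to 5490) and 90.8 (95% counting interval 24.9 to 753). AOS, an early enzyme of jasmonate synthesis, was lower at -0.76, while LOX2, the lipoxygenase before it, was higher at 1.75.

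Of the salicylic acid and defence list, 20 of 21 tested genes were higher and 0 lower, and the median log2 fold change was 2.21. PR1, the standard marker of salicylic acid signalling, was at 111 and 110.3 CPM in cauline leaf and 4.52 and 8.31 CPM in rosette leaf, a log2 fold change of 4.14 ± 0.15 (SE). The rosette libraries differed between themselves but did not reach the cauline level. PDF1.4, a defensin-like peptide, had no read in rosette leaf and was at least 6.12-fold higher. WRKY40 had a log2 fold change of 4.70 and PAD3, the last enzyme of camalexin synthesis, a ratio of 39.6 (95% counting interval 10.7 to 331). ICS1, the enzyme behind most salicylic acid, rose by 1.23 on the log2 scale, and EDS1 did not pass the test at -0.12.

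Glucosinolates, the sulfur-rich defence compounds of the cabbage family, and flavonoids went the other way. In the glucosinolate list 23 of 28 tested genes were lower and 3 higher, with a median log2 fold change of -1.41. TGG1, the myrosinase that activates glucosinolates, was at 33.9 and 41.7 CPM in cauline leaf and 2113 and 2081 CPM in rosette leaf, a log2 fold change of -5.83 ± 0.10 (SE) with adjusted p = 7.66e-89. Of the methionine-derived branch, the enzyme MAM3 differed by a ratio of 51.9 (95% counting interval 8.7 to 2110) in favour of rosette leaf, and the regulator MYB29 fell by 3.67 on the log2 scale. MYB51, a regulator of the tryptophan-derived branch, was higher at 2.82, as was the transporter GTR2 at 2.21. All 10 tested genes of the flavonoid list were lower, with a median of -3.56, among them F3H at -4.70 and FLS1, which makes flavonols, at -4.64. The other 14 listed flavonoid genes did not pass the filter on low counts.

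Genes of growth were lower as well. Of 21 cell cycle and S-phase genes only 9 could be tested, 8 of them lower. PCNA1, the sliding clamp of DNA replication, had no read in cauline leaf and 6.66 and 6.59 CPM in rosette leaf, at least 25.9-fold lower. Between the leaves MCM7, a replication helicase subunit, differed by a ratio of 43.2 (95% counting interval 14.3 to 214) in favour of rosette leaf. CYCD3;2, a D-type cyclin, was higher at 0.51. Among 21 wall and expansion genes 14 were lower and 6 higher, with a median log2 fold change of -0.96. Over all tested genes 36.0% were lower and 36.8% higher. EXPA5 fell by 5.04 and EXPA11 by 4.08 on the log2 scale, while XTH22 and XTH15, xyloglucan enzymes, were higher at 4.86 and 3.38. Of 23 cuticle genes 18 were lower and 1 higher, with BDG, needed for cutin, at -4.90 and the lipid transfer protein LTP1 at -3.54. LTP2 was the exception at 1.47.

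Genes of cytosolic ribosomal proteins, matched by their deposited names, were nearly all lower in cauline leaf. Of 203 tested, 192 were lower and 2 higher, with a median log2 fold change of -1.78. The median was -1.39 with library totals in place of TMM. RPL30B fell by 2.99 on the log2 scale, and RPP2C went against the rest with 14.5 and 13.6 CPM in cauline leaf and 0 in both rosette libraries, at least 36.5-fold higher. Families of near-identical ribosomal genes share reads, so single members are less certain than the whole.

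Leaf patterning genes leaned lower in cauline leaf, while flowering genes did not move as a group. In the list of polarity, size and teeth 12 of 20 tested genes were lower and 4 higher. Over all tested genes 36.0% were lower and 36.8% higher. The median log2 fold change of the list was -0.69, and -0.295 on library totals, where 9 were lower and 6 higher. ANT, which promotes organ growth, fell by 2.80 and AS1, which keeps meristem genes off in leaves, by 2.29 on the log2 scale. GRF3, a growth-regulating factor, was higher with a ratio of 40 (95% counting interval 10.8 to 334). Of 20 tested flowering genes 7 were higher, 5 lower and 8 not called. Those that were higher include the floral promoters FUL, FT, SOC1 and SPL4, and also MAF2, a repressor related to FLC, at 1.26. FUL, a MADS-box gene switched on at the floral transition, stood at 70.5 and 67.5 CPM in cauline leaf and 0.951 and 0 CPM in rosette leaf, a log2 fold change of 6.99 ± 0.27 (SE) with adjusted p = 9.33e-50. FT, the mobile flowering signal made in leaves, was at 50.9 and 45.5 CPM in cauline leaf and 1.43 and 2.58 CPM in rosette leaf, a log2 fold change of 4.63 ± 0.23 (SE). SOC1, which joins several flowering inputs, was at 166 and 161 CPM in cauline leaf and 35.4 and 28.7 CPM in rosette leaf, a log2 fold change of 2.35 ± 0.10 (SE). SPL4 also rose, by 4.30 on the log2 scale. Each of these genes was above the rosette level in both cauline libraries, as were 6858 of the 15791 genes tested. Against them SNZ, an AP2-type repressor of flowering, fell by 5.18, TOE1, a relative, by 1.22, and AGL24, a promoter, by 3.90 on the log2 scale. The counts of this list depend on the scaling, with 12 higher and 5 lower on library totals. Of 16 trichome genes 4 could be tested, with TRY, an inhibitor of hair formation, at -3.30 and TTG1 at 0.73.

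The circadian clock, the daily timer in which morning and evening genes repress each other, had members that differed strongly in both directions. Of 24 genes tested 11 were higher and 12 lower, against 36.8% higher and 36.0% lower over all tested genes. The median log2 fold change was -0.16, which turns to 0.23 on library totals. The members described here were picked after their values were seen. Several genes of the morning were low in cauline leaf. CCA1, the partner of LHY, was at 9.27 and 10.9 CPM in cauline leaf and 482 and 454 CPM in rosette leaf, a log2 fold change of -5.57 ± 0.11 (SE). RVE8, another morning factor, was at 3.88 and 3.72 CPM in cauline leaf and 103 and 99.2 CPM in rosette leaf, a log2 fold change of -4.72. Several genes that peak from afternoon to night were high. GI stood at 137 and 141 CPM in cauline leaf and 6.42 and 5.73 CPM in rosette leaf, a log2 fold change of 4.50 ± 0.14 (SE), and TOC1 at 66.5 and 71.5 CPM in cauline leaf and 3.33 and 2.87 CPM in rosette leaf, a log2 fold change of 4.45 ± 0.19 (SE). PRR5 was at 68.1 and 74.4 CPM and FKF1 at 64 and 67 CPM in cauline leaf and both at 0 in rosette leaf, at least 180-fold and 167-fold higher. CCR2, the clock output gene GRP7, was at 1618 and 1770 CPM in cauline leaf and 13.5 and 20.3 CPM in rosette leaf, a log2 fold change of 6.66 ± 0.12 (SE). PRR7, which peaks between morning and midday, was higher at 1.09. PRR9, a gene of the morning, did not pass the test, with 21.8 and 16.7 CPM in cauline leaf and 18.1 and 22.1 CPM in rosette leaf and overlapping leaves. The hour of harvest is not given, and its part in these and in the other expression differences was not tested.

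**Figure D3:**
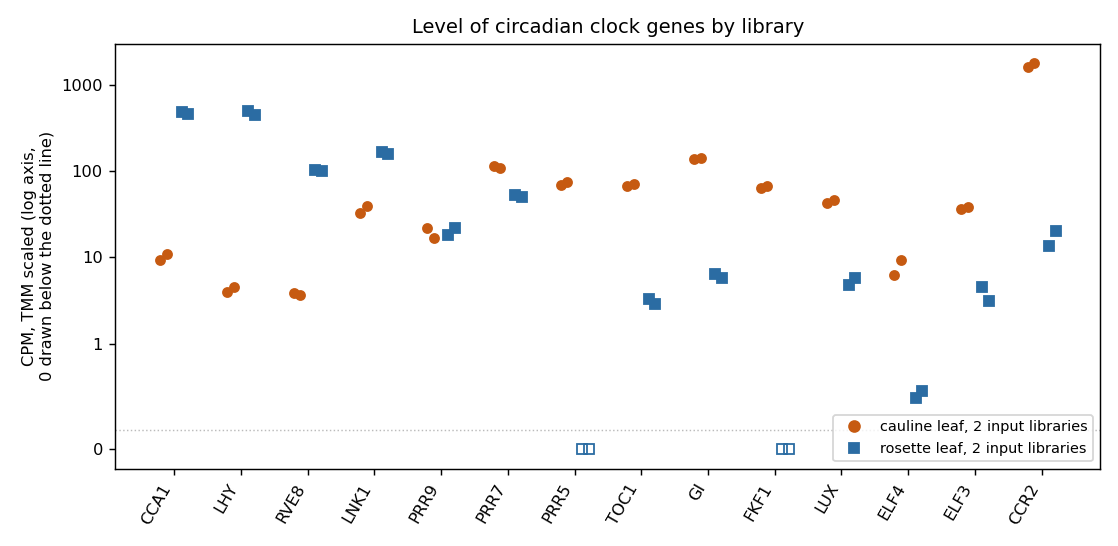
Level of 14 clock genes in each input library (TMM-scaled CPM, log axis, 0 drawn as open symbols under the dotted line), with circles for cauline and squares for rosette leaf. CCA1, LHY, RVE8 and LNK1 are higher in rosette leaf, PRR9 overlaps, and PRR5 and FKF1 are at 0 in both rosette libraries.

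Some genes of starvation in the dark and of nitrogen export were among those that rose. Of 22 tested genes for nitrogen, sugar and dark response 14 were higher and 7 lower, with a median log2 fold change of 0.98. Over all tested genes 36.8% were higher and 36.0% lower, which is also the measure for the other lists in this paragraph. ASN1, which makes asparagine for transport and is induced in the dark, was at 679.8 and 703 CPM in cauline leaf and 4.52 and 8.02 CPM in rosette leaf, a log2 fold change of 6.82 ± 0.13 (SE) with adjusted p = 4.08e-84. ASN2, its relative used in the light, was at 17.9 and 18.1 CPM in cauline leaf and 322 and 327 CPM in rosette leaf, a log2 fold change of -4.17 ± 0.10 (SE). These 2 asparagine synthetases thus moved in opposite directions in every library. DIN10, a dark-induced raffinose enzyme, was at 2407 and 2533 CPM in cauline leaf and 83.2 and 75.4 CPM in rosette leaf, a log2 fold change of 4.96 ± 0.10 (SE), and DIN2, a glucosidase, was at least 16.8-fold higher. SWEET12, a sucrose exporter, and GLN1;1, a cytosolic glutamine synthetase, had log2 fold changes of 4.32 and 4.22. NIR1 and NIA2, which reduce nitrite and nitrate, fell by 2.75 and by 2.15 on the log2 scale. Of 26 tested genes for cold, drought and abscisic acid 20 were higher and 5 lower, led by CBF3, at least 5.24-fold higher, HAI1, a phosphatase of the hormone's signalling, at 4.76 on the log2 scale and LTI30, a dehydrin, with a ratio of 21.4 (95% counting interval 7.11 to 106). Heat shock genes were mixed, with 4 of 8 higher and 2 lower.

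Genes that write, erase or read m6A had no common direction. Of 21 tested, 4 were higher and 7 lower, against 36.8% higher and 36.0% lower over all tested genes. The median log2 fold change was -0.15, which turns to 0.24 on library totals, where 8 were higher and 3 lower. MTA, the catalytic subunit of the writer, was at 9.27 and 6.91 CPM in cauline leaf and 15.2 and 14.9 CPM in rosette leaf, a log2 fold change of -0.83 ± 0.21 (SE) with adjusted p = 0.000306. MTB, its partner, fell by 0.54 on the log2 scale. On library totals neither was called, with adjusted p = 0.0572 for MTA and 0.453 for MTB in edgeR's test, and in the main scaling FIP37 and VIR did not pass the test at -0.01 and -0.07. The largest changes were in readers, ECT6 at -2.24, ECT3 at -1.69 and ECT8 at -1.50, with ECT1 higher at 0.92. The main eraser ALKBH10B and the reader ECT2 did not pass the test, at -0.23 and -0.11.

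The m6A fractions were compared at 107558 of the 188282 listed sites, in 11227 genes, where both leaves had at least 20 reads. The paper combined the sites detected in its tissues, so a site could enter the list through a high fraction in a single leaf. Of the sites compared, 29367 were marked by the authors as called in cauline leaf alone and 6237 in rosette leaf alone. The median fraction was 0.147 in cauline leaf and 0.0829 in rosette leaf, and the median difference of cauline minus rosette was 0.0455, with an SD over sites of 0.227. The fraction was at least 0.2 higher in cauline leaf at 15998 sites (14.9%) and at least 0.2 lower at 6370 (5.92%). At sites marked in neither leaf the counts were 4532 (8.11%) and 2740 (4.9%). With replicates pooled no spread between them is known, so these are descriptions with no test. The authors' mark for a called site was carried by 45434 of these sites in cauline leaf and 22304 in rosette leaf, with 16067 in both, which is 35.4% of the cauline and 72.0% of the rosette marks. The median depth was 84 reads in cauline and 63 reads in rosette leaf. Where rosette leaf had at least as many reads as cauline leaf, the median difference was 0.0415 over 39671 sites, and with at least 200 reads in both leaves it was 0.0472 over 11571 sites, at median depths of 457 and 461 reads. At those deep sites 60.9% were marked in cauline and 30.4% in rosette leaf. The lowest fraction of any marked site was 0.1 in each leaf, a value between the medians of the leaves. The counts of marks are therefore not separate from the difference in fraction.

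**Figure D4:**
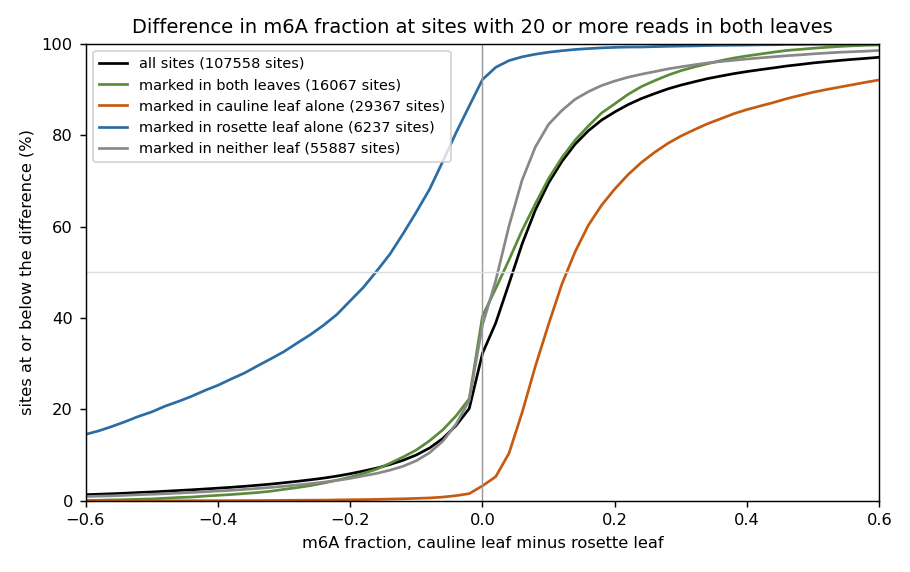
Cumulative share of sites (percent) against the m6A fraction of cauline minus rosette leaf, for all sites and for sites split by the authors' mark. The curve of all sites crosses 50% at 0.0455, and that of sites marked in both leaves at 0.0315; the curves of sites marked in a single leaf are shifted by that choice.

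The median difference was above 0 in each region and chromosome with at least 100 sites, and in most motifs. It was smallest by region at 170 sites in splice sites, at 0.00419. Sites in coding sequence had medians of 0.118 and 0.0638 in cauline and rosette leaf with a median difference of 0.0475, and sites in the 3′ UTR medians of 0.336 and 0.268 with a median difference of 0.0377. Among sites marked in both leaves the median difference was 0.0521 in coding sequence and 0.0153 in the 3′ UTR. At those 3′ UTR sites 23.8% of the cauline and 21.0% of the rosette fractions were exactly 1. Sites marked in neither leaf were also higher in cauline leaf, by a median of 0.0232 over 55887 sites. The 5 nuclear chromosomes had median differences between 0.0452 and 0.0459, and 405 sites on chloroplast transcripts had 0.0469. The treated rosette libraries, from which the rosette fractions come, differed more between replicates than any other treated or input pair of the tissue series. Their part in the difference was not tested.

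**Figure D5:**
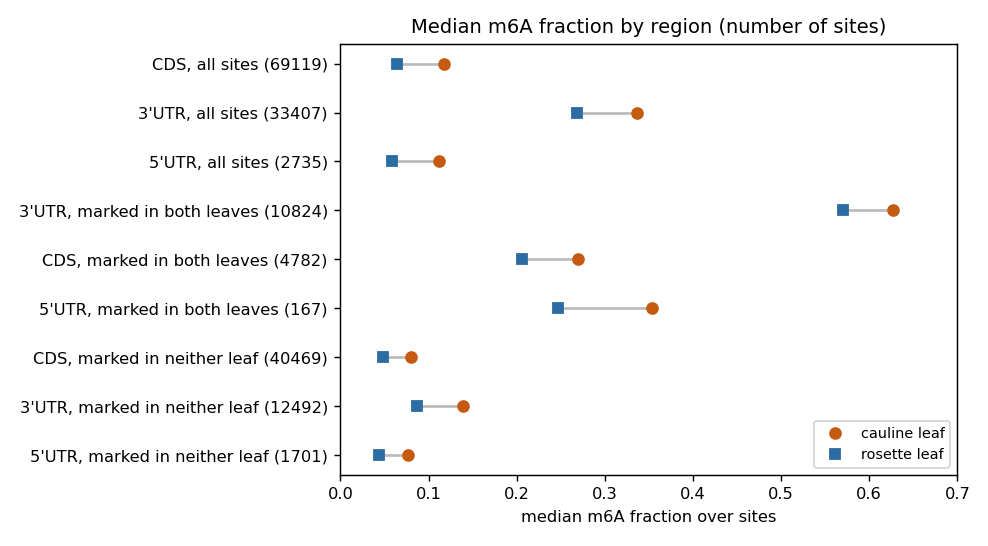
Median m6A fraction over sites in cauline (circles) and rosette leaf (squares) by transcript region, for all sites, sites marked in both leaves and sites marked in neither, with the number of sites in brackets. The cauline median lies above the rosette median in all 9 rows, from 0.627 against 0.570 at 3′ UTR sites marked in both leaves down to sites marked in neither.

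Of 105 sequence motifs of 5 bases with at least 100 sites, 93 had a median difference above 0, 12 of exactly 0 and 0 below. The 4 motifs with most sites were AGACA with 9630 sites and a median difference of 0.0725, AGATG with 7380 sites and 0.0545, AGACT with 6369 sites and 0.0419, and TGACA with 4749 sites and 0.0402. The largest median difference was 0.197, for AAAGC, followed by TAAGC and TAAGG at 0.192. Motifs of the class the authors name DRACH, the consensus of the writer, had a median difference of 0.0472 over 41076 sites. Outside the named classes the fractions were less graded, with 33.1% of rosette values at exactly 0. Fractions of the other tissues at the 75935 sites with enough reads in all 9 put the leaves apart, with medians of 0.148 in cauline leaf, under silique at 0.161, and 0.0829 in rosette leaf, over root at 0.0734. The other 5 tissues lay between the leaves.

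By gene, 7923 genes had at least 5 sites, and the mean difference was above 0 in 84.7% of them. It was at least 0.1 higher in cauline leaf in 2193 genes (27.7%) and at least 0.1 lower in 161 (2.03%). These counts include genes with sites listed through a high fraction in cauline leaf. With only sites marked in neither leaf, they were 595 and 143 of 4953 genes. Genes called higher, lower and not called for expression had median differences of 0.0644, 0.0591 and 0.0653. Lists that fell and lists that rose in expression both had mostly positive m6A differences. The mean difference was above 0 in 33 of 36 photosystem genes, in 14 of 15 Calvin cycle genes and in 158 of 180 ribosomal protein genes. It was above 0 in 11 of 13 jasmonate genes, in 4 of 6 senescence genes and in 12 of 12 genes of the m6A machinery. LHCB6, an antenna protein of photosystem II, had a mean fraction of 0.451 in cauline and 0.229 in rosette leaf over its sites, and PSBP-1, of the oxygen-evolving complex, 0.370 and 0.154. FBA1 had 0.366 and 0.155, although its mRNA was about 21.1-fold lower in cauline leaf. LOX2, whose mRNA was higher in cauline leaf, was higher in m6A at 30 of 30 sites, with means of 0.125 and 0.0709.

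The rule for genes by m6A named CWLP, a cell wall protein, with mean fractions of 0.622 in cauline and 0.0567 in rosette leaf, MYB3, a repressor of phenylpropanoid genes, with a difference of 0.529, FAH2 with 0.462 and CHX20, a cation exchanger of guard cells, with 0.451. In the other direction it named RBP47A at -0.259, UGP2, which makes UDP-glucose, at -0.282, CTF2A at -0.307 and NPX1 at -0.402. Each rests on 5 to 7 sites, of which 3 to 6 have a fraction of exactly 0 or 1. The rule for sites is tied, since 88 sites went from 0 in rosette to 1 in cauline leaf and 55 the other way, and 133 of these 143 lie outside the named motif classes. In table order it names sites in SR34, GSTF7, TIC110 and MAC5A that rose by 1.0, and sites in NDA1, PHYA, SD1-13 and GAMMA that fell by 1.0, at depths between 52 and 484 reads. None of these 8 sites is marked in both leaves. That follows from their choice, since each is at 0 in a leaf and no marked site lies below 0.1.

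A total of 12 sites are shown with their sequence, taken on the RNA strand from RefSeq TAIR10.1, in which the motif matched every listed site of the nuclear chromosomes, with the motif in capitals and the adenosine of the site at its middle base. They were chosen after their values were seen, as the deepest sites marked in both leaves and as DRACH-class sites of listed genes with the largest differences. Of the latter, 3 have a fraction of exactly 0 or 1 in a leaf. The deepest were in mRNAs of light harvesting and photosystem proteins.
LHB1B2 (chr2:14523433-14523453, minus strand): gccgcatcAGATGtcctcgga
PSBR (chr1:29736168-29736188, plus strand): gtcgctcaCAAGAgctcgtcc
LHCA2 (chr3:22746205-22746225, plus strand): atccagatAGACCaatctggt
LHCA3 (chr1:22700769-22700789, plus strand): tactgggcAGACAattacaca
All 4 lie in coding sequence. The LHB1B2 site had a fraction of 0.186 in cauline leaf at 94802 reads and 0.107 in rosette leaf at 76419 reads. The PSBR site had 0.918 and 0.461, at 88870 and 63509 reads, in a gene whose expression did not pass the test. LHCA2 had 0.181 and 0.112, and LHCA3 0.25 and 0.149. Each site was higher in cauline leaf. The PSBR site, whose motif alone among them lies outside the named classes, stood apart by its size.

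Among DRACH-class sites of listed genes, those that rose most lay in genes of several pathways, at depths between 53 and 165 reads.
RAP2.7 (chr2:12225982-12226002, minus strand): ttgagaaaAAACTttatcaac
ABCG32 (chr2:11488078-11488098, plus strand): gtcatctaTAACAatcactga
emb2171 (chr3:1168522-1168542, plus strand): gttttaaaAAACAtagaattc
AOC4 (chr1:4548482-4548502, plus strand): aggaagtgAAACCggcggctg
RAP2.7, which is TOE1, had 1.0 in cauline and 0.327 in rosette leaf. ABCG32, a cutin transporter, had 0.814 and 0.153. The gene deposited as emb2171, a ribosomal protein of the large subunit, had 1.0 and 0.361. AOC4, an allene oxide cyclase of jasmonate synthesis, had 0.629 and 0.0 at a site in coding sequence, while the other 3 sites are in the 3′ UTR. Expression of TOE1 and ABCG32 was lower in cauline leaf, and AOC4 did not pass the test at 0.27.

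Sites that went against the general shift were fewer, and all 4 shown lie in the 3′ UTR.
RD20 (chr2:14144860-14144880, minus strand): gtgtttgtAAACTatgtttca
GTR1 (chr3:17697995-17698015, minus strand): atctttgtAGACAtgtattgt
SAG24 (chr1:24840520-24840540, plus strand): acagttgtAGACAaggatcct
DIN10 (chr5:6836656-6836676, plus strand): ttaaacaaAAACAgtctcaaa
RD20, a drought-induced calcium-binding protein, had 0.265 in cauline and 0.987 in rosette leaf. GTR1, a glucosinolate transporter, had 0.411 and 0.975. SAG24, a ribosomal protein gene, had 0.483 and 0.996. DIN10 had 0.0976 at 4837 reads in cauline and 0.582 at 119 reads in rosette leaf. In DIN10 and RD20 the leaf with more mRNA had the lower fraction, while GTR1 mRNA was lower in cauline leaf at -0.59.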

How the data were processed

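The authors processed the reads on TAIR10 and deposited raw read counts for genes, and, per site and tissue, a depth (a count of reads), an m6A fraction calibrated by motif on spike-in probes, and a mark where the site was called. Replicates are pooled in the site table. Aligner and counting tool: not given in the sources used here. Input counts were tested with edgeR 4.0.16 in R 4.3.3 (TMM, filterByExpr, glmQLFTest, no replicate block, Benjamini-Hochberg over 15791 genes, adjusted p below 0.05). A run on simulated data came first. It changed a small share of genes, as many up as down, so it does not cover a contrast with this many calls. SE is the log2 fold change divided by the root of F. With 2 libraries per leaf, p-values measure the spread between these libraries. DESeq2 1.42.0 was an alternative. The members and lists were chosen with earlier results of these data known. Lists were matched by symbol, ribosomal genes by deposited name, and HIZ1, HIZ2 and LAT52 were not matched.

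Named genes were the 12 with the largest rise and the 12 with the largest fall among called genes with a symbol, no overlap between leaves and at least 20 CPM in the higher leaf, and the list members with the largest fold changes. Others in the text, such as those not called or against their list, were chosen after their values were seen. Sites needed 20 reads in both leaves, or 50 reads to be named. The plan asked for m6A by the mut_type column, which holds the transcript region, so results are given by region, motif class and motif. A lower bound of a fold sets 3 counts over the group in place of 0, and counting intervals of ratios are at 95% and cover counting error only. The number of per-sample columns left without a sample was 0.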

Additional observations from a re-analysis of the deposited data

How the results depend on the processing

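The counts of 5818 higher and 5686 lower genes were 4328 and 4329 with DESeq2, 5733 and 5602 with the replicate number as a block, and between 4965 and 5752 and between 4976 and 5421 when a library was left out, which leaves a leaf with 1 library that is assumed to vary like the other leaf. At least 2-fold changes were 3391 and 3552. Deviations from the leaf means correlated at -0.133 between libraries of the same number over 4554 genes. With 2 libraries per leaf the crossed value is the same with its sign turned, so this cannot settle whether the numbers pair the samples. A crossed block, chosen after the data were seen, gave 5775 and 5670 calls. On library totals 12 flowering genes were higher and 3 genes of the m6A machinery lower, and DESeq2 called 4 of the latter lower. The medians of the clock and m6A machinery lists turned sign on library totals, as did LHCA2 and LHCA3. With the treated libraries the medians of the trichome list, from 0.08 to -0.10, and the clock list, from -0.16 to 0.03, turned sign, and LTP2 and SEP3 had log2 fold changes of -0.30 and -0.04 that were not called.

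Sites at least 0.2 higher and lower in cauline leaf, 15998 and 6370, moved with the sites kept. They were 6565 and 2475 at 50 reads, 1060 and 194 at 200 reads, 2103 and 832 at sites marked in both leaves, 6496 and 2448 in the DRACH class, 7269 and 2981 at fractions between 0 and 1, and 5653 and 2154 with at least as many rosette reads. Sites lower were 9556 at 10 reads and 3630 at sites marked in either leaf. With a difference of 0.1 they were 32671 and 10784. Genes with a mean at least 0.1 higher and lower, 2193 and 161, were 974 and 52, 190 and 2, 219 and 24, 1025 and 100, 901 and 36, and 755 and 74 in the same order, and 258 were lower at 10 reads. Of 33 motifs with enough sites marked in both leaves, 24 had a median above 0. Apart from the 10 reads and the difference of 0.1, these settings keep fewer sites by construction. The settings by DRACH class, fractions between 0 and 1, rosette reads and 200 reads were chosen after the data were seen. The pooled fractions limit every m6A value to a description.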

Other observations

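The following gene groups were chosen after their values were seen and are given as values. Of 15 genes for the breakdown of amino acids, 15 were higher in cauline leaf, with a median log2 fold change of 3.26. LKR, which degrades lysine, was at 249 and 242 CPM in cauline leaf and 2.38 and 3.15 CPM in rosette leaf, a log2 fold change of 6.48 ± 0.15 (SE). Both cauline libraries lay above both rosette libraries, as in 6858 of the 15791 genes tested. ERD5, a proline dehydrogenase, DIN4 and IVD, enzymes of branched-chain amino acid breakdown, were at 4.17, 3.93 and 3.88. Of 21 autophagy genes 21 were higher, with a median of 1.53 and the ubiquitin-like protein ATG8B at 3.44.

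Of 19 genes of chlorophyll synthesis 15 were lower and 2 higher, with a median of -1.94. GUN5, a subunit of the magnesium chelatase, was at 454 and 475 CPM in cauline leaf and 6324 and 5879 CPM in rosette leaf, a log2 fold change of -3.72 ± 0.09 (SE). PORA and PORB, reductases known from seedlings greening in the light, were higher at 3.13 and 1.46. Of 13 photorespiration genes 12 were lower and 1 higher.

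The 3 catalases, which remove hydrogen peroxide, moved apart. CAT2, the catalase of photorespiration, was at 496 and 508 CPM in cauline leaf and 4539 and 3989 CPM in rosette leaf, a log2 fold change of -3.09 ± 0.09 (SE). CAT3, which is known to follow the clock, was at 10320 and 10990 CPM in cauline leaf and 662 and 602 CPM in rosette leaf, a log2 fold change of 4.08 ± 0.10 (SE). CAT1 was higher at 3.61. Among 19 tested starch genes 9 were higher and 8 lower, against 36.8% and 36.0% of all tested genes. GBSS1, the clock-controlled amylose synthase, was at 5.76 and 12 CPM in cauline leaf and 467 and 464 CPM in rosette leaf. ISA3, a debranching enzyme of starch breakdown, was higher at 4.38.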
